A study of Homo sapiens with 12 samples.

Results

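The 43 genes that encode the alpha chains of human collagens were followed through 12 RNA-seq libraries of T24 cells, an established line from a bladder carcinoma. They were taken from the 60603 genes of the count table as every symbol made of COL, a number, A and a number, with COL17A1 left out. Of these, 20 were expressed, meaning that they passed edgeR's filterByExpr over the 4 groups, as did 17775 genes in all. The libraries form 4 groups of 3: T24 cells of genotype WT without treatment, WT cells given 5-Ad-IAA, cells of genotype NS1 without treatment, and NS1 cells given 5-Ad-IAA. The series concerns AlissAID, in which an auxin derivative such as 5-Ad-IAA induces the degradation of an endogenous protein that carries no tag. The labels spell out neither NS1 nor the protein it is directed at, and they do not say which parts of the system the WT cells carry or whether the NS1 cells are a single clone. The dose and duration of 5-Ad-IAA are not used here. All cells grew in the same serum-supplemented medium. The replicates are numbered 1 to 3 in every group, and nothing says that they came from separate cultures, so p-values measure only the spread between these libraries, which may be technical.

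Collagens are extracellular proteins built from 3 alpha chains wound into a triple helix, and the genes of partner chains have to be expressed together for a mixed helix to form. Fibrillar collagens make the cross-banded fibrils of connective tissue, and type IV collagens make the sheet under epithelia, including the urothelium from which bladder carcinomas arise. The remaining types link fibrils to each other, anchor basement membranes, form beaded filaments or span the cell membrane. Cultured carcinoma cells are known to express basement membrane collagens, whereas the bulk of fibrillar collagen in a tumour comes from fibroblasts.

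Depth ran from 10593934 to 20266996 counts per library. T24 cells carried epithelial transcripts, with keratin genes KRT7, KRT8, KRT18 and KRT19 at 2330 counts or more in every library and 5 of 6 epithelial markers expressed, but CDH1 had at most 2 counts. Summed epithelial markers ran from 4322 to 5948 CPM (counts scaled to 1e6 per library after normalisation) in untreated WT, 5169 to 5897 in treated WT, 4018 to 7550 in untreated NS1 and 4987 to 10961 in treated NS1 cells. Of 6 urothelial markers, 3 were expressed (GATA3, PPARG and UPK2), and UPK3A had 0 counts. Among 8 markers of fibroblasts and stroma, DCN had 0 counts in all libraries and LUM, FAP and PDGFRA had at most 2, 2 and 3. Their summed level was 6.48 to 12.3 CPM in untreated WT, 6.68 to 11.5 in treated WT, 9.81 to 12.2 in untreated NS1 and 10.8 to 22.9 in treated NS1 cells. Of 3 endothelial markers 1 was expressed (PECAM1), and of 3 leukocyte markers 2 were (CD68 and CD14). In NS1 cells 3 of the 13 expressed markers of all these cell types rose with 5-Ad-IAA. They were the stromal PDGFRB (log2 fold change 2.38, edgeR adjusted p 0.0374), the urothelial GATA3 (1.34, adjusted p 0.0281) and the endothelial PECAM1 (3.19, adjusted p 0.0251). Of all genes tested in that comparison, 6.15% had an edgeR adjusted p under 0.05 (2.76% higher and 3.39% lower). PECAM1 had 1, 5 and 2 counts in untreated and 22, 21 and 34 in treated NS1 libraries, so 3.19 is no measure of size. Of the other endothelial markers, CDH5 had at most 2 counts in NS1 libraries. VWF had 0, 8 and 7 counts untreated and 4, 7 and 13 treated. The stromal ACTA2 had 8.70, 8.14 and 7.12 CPM in untreated and 5.87, 4.36 and 3.90 CPM in treated NS1 libraries, which did not overlap. Its log2 fold change was -0.75 (adjusted p 0.119), so the stromal markers PDGFRB and ACTA2 had values of opposite sign. The part of these markers in the collagen results was not tested. In bulk RNA, fewer cells with a transcript and less transcript per cell cannot be told apart.

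T24 cells expressed 3 of 11 fibrillar genes, 5 of 6 type IV genes and 12 of 26 others. Collagen reads made up 0.203% to 0.302% of a library. Of these reads, 16.2% to 19.3% were fibrillar, 30.5% to 37.7% type IV and 43.8% to 53.2% others. Type IV took 36.8% to 37.7% in untreated NS1 libraries and 30.5% to 33.8% in the other groups. The class of others took 43.8% to 45.5% in untreated NS1 libraries and 48.4% to 53.2% in the other groups. These shares were not tested. The 6 genes COL4A2, COL5A2, COL6A1, COL6A2, COL18A1 and COL4A1 took 84.1% to 87.6% of collagen reads in each library. The summed collagen level was 2496 ± 396 CPM (SD, n = 3) in untreated WT, 2347 ± 31.5 in treated WT, 2550 ± 189 in untreated NS1 and 2729 ± 276 in treated NS1 cells. The treated NS1 libraries (2422.5 to 2959 CPM) all lay above the treated WT libraries (2315 to 2378 CPM), and every other pair of groups overlapped. With 3 libraries against 3 an exact permutation test cannot go below a 2-sided p of 0.10, so this sum was not tested.

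Per kilobase of exon, COL5A2 had the highest mean over the 12 libraries (59.2 CPM per kb), followed by COL6A1 (55.3), COL6A2 (53.4), COL18A1 (42.2), COL4A2 (29) and COL4A1 (15.8). The mid-range held COL8A1 (8.59), COL7A1 (8.09), COL12A1 (7.57), COL4A5 (3.41), COL4A6 (2.18) and COL13A1 (1.86). COL9A3, COL9A2, COL27A1, COL1A1, COL4A4, COL16A1, COL14A1 and COL6A3 lay between 0.732 and 0.0485 CPM per kb. The length is that of the merged exons of all GENCODE 29 transcripts of a gene, 19293 bases for COL4A2 and 7453 for COL5A2. The order depends on it: in CPM alone COL4A2 had the highest mean (560), above COL5A2 (441). For COL5A2, COL6A2, COL18A1 and COL4A1 the gene version in GENCODE 29 differs from that in the count table. The 23 genes that were not expressed had at most 79 counts summed over all libraries (COL8A2), and COL6A5, COL9A1, COL19A1, COL22A1 and COL23A1 had none. COL1A2, COL3A1 and COL2A1, with 4, 3 and 5 counts in all, belonged to this set, so the partner chain of COL1A1 in type I collagen was hardly detected. The others were COL5A1, COL5A3, COL11A1, COL11A2, COL24A1, COL4A3, COL6A6, COL10A1, COL15A1, COL20A1, COL21A1, COL25A1, COL26A1 and COL28A1.

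**Figure D1:**
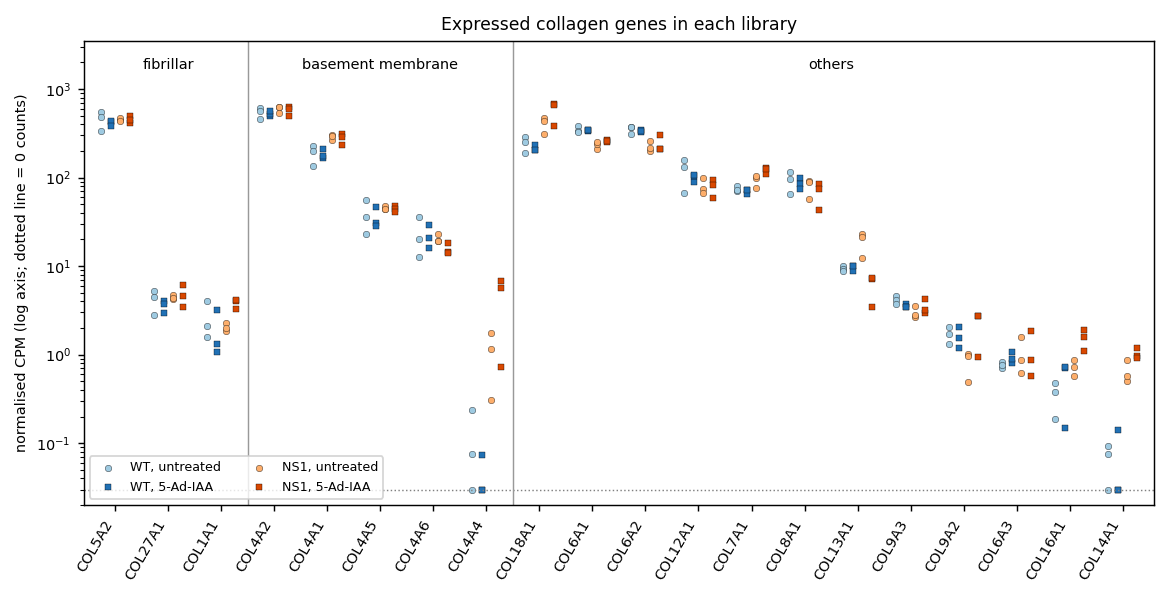
Normalised CPM of the 20 expressed collagen genes (log axis) in each of the 12 libraries, grouped by class, with each group of 3 libraries in its own colour and 0 counts drawn on the dotted line. COL5A2, COL4A2, COL4A1, COL18A1, COL6A1 and COL6A2 lie above 100 CPM in every library, and COL4A4 and COL14A1 are near the floor in WT cells and above it in NS1 cells.

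Whether 5-Ad-IAA changed collagen transcripts in NS1 cells was tested with edgeR's quasi-likelihood test, calling genes whose p, adjusted by Benjamini-Hochberg across the 17775 tested, was under 0.05. COL13A1, which encodes a transmembrane collagen found at cell adhesions and at the neuromuscular junction, fell. It was the sole call among the 20 expressed collagens, while 6.15% of all genes tested were called (2.76% higher and 3.39% lower). A fit that blocks on the replicate number separately in each line (the line block) was also made, because replicate 1 libraries of a line deviated together. For replicates 2 and 3 of NS1, same-number correlations (0.386 and 0.384) were near those of unlike numbers (0.371 and 0.278), so their pairing is less sure. With the line block 7 of 20 collagens were called, 5 higher and 2 lower, against 25.9% of all genes (13% higher and 12.8% lower). The median log2 fold change was 0.09 for collagens and 0.01 for all genes.

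COL13A1 (ENSG00000197467.14, chromosome 10, 69801867 to 69964275 on GRCh38) had 12.3, 23.0 and 21.3 CPM in untreated NS1 replicates 1, 2 and 3 and 3.43, 7.16 and 7.31 CPM in the treated ones. In WT cells it had 9.93, 9.31 and 8.89 CPM without and 10.1, 8.83 and 9.91 CPM with 5-Ad-IAA. All treated NS1 libraries lay below all other libraries, and all untreated NS1 libraries lay above all WT libraries. The log2 fold change in NS1 cells was -1.68 (SE 0.27, adjusted p 0.00537), and with the line block -1.68 (SE 0.11, adjusted p 1.99e-07). Without replicate 2 of all groups it was -1.66 (adjusted p 0.182) and without replicate 3 -1.76 (adjusted p 0.194), while the call held in all 6 fits that left out a single NS1 library. The 250 bases before its RefSeq start (GRCh38.p14, chr10:69801656-69801905, plus strand) are shown because it was the only collagen called in that fit, with its 1 match to the TATA box letters TATAAA in capitals.

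COL13A1: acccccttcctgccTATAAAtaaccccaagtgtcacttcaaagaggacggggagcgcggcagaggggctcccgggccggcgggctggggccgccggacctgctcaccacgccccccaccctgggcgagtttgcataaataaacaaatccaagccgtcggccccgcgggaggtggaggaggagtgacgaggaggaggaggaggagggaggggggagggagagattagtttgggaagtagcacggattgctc

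Promoter windows were searched on both strands for 4 short motifs. In the 250 bases before the start, 10.7% of 35116 RefSeq windows hold the TATA box letters. The CCAAT box is held by 32% of them. The GC box, searched as GGGCGG, is held by 42.6%. The AP-1 site, searched as TGANTCA, is held by 6.57%. The COL13A1 stretch held none of the other three.

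The further calls with the line block were spread over the 3 classes. COL4A4, a type IV chain known from the glomerular basement membrane, had 5, 24 and 12 counts in untreated and 14, 78 and 68 counts in treated NS1 libraries. Replicate 1 was low in both groups, so the ranges overlapped although every pair went up. Its log2 fold change was 1.98 with the line block (adjusted p 0.000121) and 2.02 (SE 0.71, adjusted p 0.114) without it. Leaving out treated NS1 replicate 1 gave 2.57 (adjusted p 0.0106).

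COL18A1, the multiplexin whose cleaved end is endostatin, had 308, 476 and 439 CPM in untreated NS1 libraries and 378, 675 and 660 CPM in treated ones. Every pair went up, with a log2 fold change of 0.46 with the line block (adjusted p 0.00312) and 0.49 (SE 0.22, adjusted p 0.23) without it. It was also called without treated NS1 replicate 1 (0.71, adjusted p 0.041). Its exons overlap those of SLC19A1, whose values are given with the comparison of the lines. COL7A1 (ENSG00000114270.17, chromosome 3, 48564073 to 48595267), the anchoring fibril chain, had 76.8, 97.6 and 105 CPM untreated and 110, 128 and 126 CPM treated. These ranges did not overlap, and the log2 fold change was 0.39 with the line block (adjusted p 0.000913) and without it (SE 0.12, adjusted p 0.0777).

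COL1A1 (ENSG00000108821.13, chromosome 17, 50183289 to 50201632), the main chain of type I collagen, had 1.85, 2.25 and 2.02 CPM in untreated and 4, 3.32 and 4.15 CPM in treated NS1 libraries. The groups did not overlap, and the log2 fold change was 0.91 with the line block (adjusted p 0.00406) and 0.91 (SE 0.38, adjusted p 0.192) without it. COL9A2, a chain of the fibril-associated type IX collagen, had 0.494, 1.02 and 0.962 CPM untreated and 0.936, 2.71 and 2.74 CPM treated. It rose by 1.32 log2 with the line block (adjusted p 0.00604), and the unblocked value was 1.34 (SE 0.44, adjusted p 0.0907). COL8A1, a short-chain collagen of vessel walls and the cornea, had 56.9, 92.5 and 89.9 CPM untreated and 42.5, 83.5 and 74.7 CPM treated. It was lower in each pair, and it fell by 0.28 log2 with the line block (adjusted p 0.0304). Without the block the COL8A1 change was -0.26 (SE 0.26, adjusted p 0.653).

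With one block per replicate number, 3 of 20 collagens were called in NS1 cells (COL4A4 and COL7A1 higher, COL13A1 lower), against 13.6% of all genes (6.5% higher and 7.12% lower). The 2 groups did not overlap for 7 of 20 collagens, 5 higher and 2 lower, while 27.2% of all genes did not overlap (13.2% higher and 14% lower). Of these, COL6A1, COL14A1, COL16A1 and COL4A6 were not called in any of the 3 fits. In pairs of the same number, 8 collagens were higher with 5-Ad-IAA in 3 of 3 pairs and 4 were lower, where 29% and 28.6% of all genes were. Without replicate 1 of all groups 5 collagens were called, 4 higher (COL4A4, COL18A1, COL7A1 and COL9A2) and COL13A1 lower, against 11.4% of all genes. Without treated NS1 replicate 1 alone 4 were called, against 6.54% of all genes. Without replicate 2, and without replicate 3, none was called by edgeR, against 0% of all genes, with 2 of 20 collagens at an unadjusted p under 0.05 in each fit. The share of all genes under that unadjusted cutoff was not taken for these 2 fits. In the fit of all libraries 7 of 20 collagens and 3689 of 17775 genes were under it.

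In WT cells 5-Ad-IAA gave no call among the 20 collagens with edgeR or DESeq2, and 0 of 20 had an unadjusted p under 0.05. Of all genes edgeR called 0%, with 94 at an unadjusted p under 0.05. Log2 fold changes lay between -0.43 and 0.73, leaving aside COL4A4, which had at most 5 counts in a WT library. COL9A3 was the only collagen whose groups did not overlap (4.59, 4.13 and 3.77 CPM untreated, 3.75, 3.49 and 3.42 CPM treated), where 3.41% of all genes did not overlap (1.68% higher and 1.73% lower). The log2 fold change of COL9A3 was -0.23 (SE 0.19, adjusted p 1). In pairs of the same number 1 collagen was higher in 3 of 3 WT pairs (COL6A3) and 3 were lower (COL1A1, COL7A1 and COL9A3), where 9.3% and 9.27% of all genes were.

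**Figure D2:**
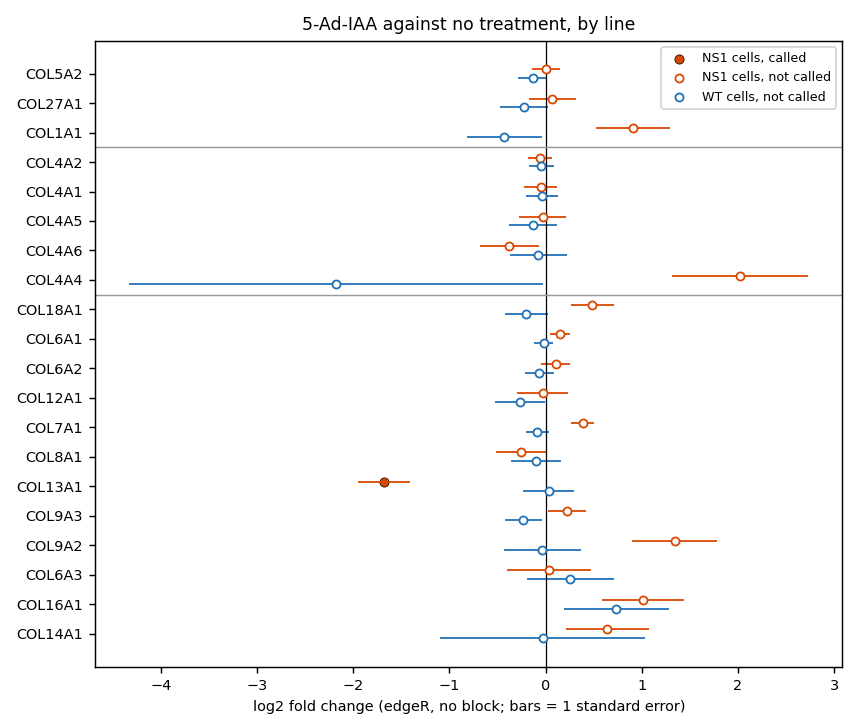
Log2 fold change with 5-Ad-IAA in NS1 and WT cells for the 20 expressed collagens (edgeR without block), with bars of 1 standard error and filled points for called genes. COL13A1 in NS1 cells is the one filled point, at -1.68, and the COL4A4 value in WT cells rests on at most 5 counts per library and is no measure of size.

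The difference between the lines' responses was tested as an interaction. Without a block edgeR called no collagen and 0.0225% of all genes. At an unadjusted p under 0.05 there were 5 of 20 collagens and 2196 of 17775 genes. DESeq2 called COL13A1, where 2.76% of genes with an adjusted p were called. The edgeR interaction of COL13A1 was -1.72 log2 (SE 0.38, adjusted p 0.0849). With the line block 5 collagens were called, against 14% of all genes (6.98% higher and 7.06% lower). They were COL13A1 at -1.71 (adjusted p 1.61e-05), COL18A1 at 0.65 (adjusted p 0.0068), COL7A1 at 0.48 (adjusted p 0.00589), COL1A1 at 1.34 (adjusted p 0.00737) and COL4A4. The COL4A4 interaction, 4.16 (adjusted p 0.0326), depends on WT libraries with 5 counts or fewer. With one block per replicate number COL13A1 was the only collagen called (-1.71, adjusted p 0.0221), against 3.57% of all genes (1.71% higher and 1.86% lower).

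Untreated NS1 and WT cells differed in 6 of 20 collagens, 4 higher and 2 lower in NS1, where 12.5% of all genes were called (5.45% higher and 7.05% lower). With 5-Ad-IAA in both lines 8 of 20 were called, 6 higher and 2 lower in NS1, where 28.2% of all genes were called (13.6% higher and 14.5% lower). The comparisons of the lines and those of the inducer share libraries, so their values are given side by side only. Between untreated lines the groups did not overlap for 10 of 20 collagens, 6 higher and 4 lower in NS1, where 31% of all genes did not (14.8% higher and 16.2% lower). Between treated lines they did not overlap for 10 of 20, 7 higher and 3 lower, where 43.4% of all genes did not (21.2% higher and 22.2% lower). The median log2 difference of the collagens was 0.11 without and 0.27 with 5-Ad-IAA, and that of all genes 0.00 in both. COL4A4, COL14A1 and COL16A1 passed the filter only because of their NS1 libraries, which favours a value higher in NS1. They count in the calls, the groups that did not overlap and the medians above. With at least 10 counts required in every library, 5 collagens were called untreated (12.7% of all genes) and 5 treated (29.3%).

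Among the type IV chains, COL4A1 was higher in NS1 cells and COL4A2 was not called, although these partner chains lie head to head on chromosome 13. COL4A1 had 229, 198 and 136 CPM in untreated WT, 207, 167 and 175 CPM in treated WT, 263, 299 and 296 CPM in untreated NS1 and 236, 310 and 283 CPM in treated NS1 libraries. All NS1 libraries lay above all WT libraries. The log2 difference was 0.61 untreated (SE 0.17, adjusted p 0.0339) and 0.59 treated (SE 0.17, adjusted p 0.0196). COL4A2 (ENSG00000134871.18, chromosome 13, 110305812 to 110513209) ran from 461 to 605 CPM in WT and from 499 to 630 CPM in NS1 libraries, with log2 differences of 0.14 (adjusted p 0.523) and 0.12 (adjusted p 0.503).

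The COL4A1 call untreated was lost without 5 of the 6 single libraries (adjusted p 0.0512 without NS1 replicate 1, 0.0596 and 0.0886 without WT replicates 2 and 3, 0.0975 and 0.0941 without NS1 replicates 2 and 3). It was also lost with library totals as the scaling (0.57, adjusted p 0.0556) and with only the 2 groups in the fit (0.61, adjusted p 0.0594). The treated call was lost without WT replicate 2 (adjusted p 0.0783), NS1 replicate 2 (0.0804) or WT replicate 3 (0.0694). Leaving out replicate 2 or replicate 3 of all groups ended both calls.

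The ratio of COL4A1 to COL4A2 within a library, per kilobase of exon, does not depend on the scaling between libraries. Its size depends on the exon lengths used, which are the same for every library. It was 0.615 to 0.649 in the 6 NS1 libraries and 0.386 to 0.549 in the 6 WT libraries, with no overlap. Means were 0.448 ± 0.056 (SD, n = 3) in untreated WT, 0.458 ± 0.079 in treated WT, 0.627 ± 0.016 in untreated NS1 and 0.629 ± 0.017 in treated NS1 cells. The bases between the 2 RefSeq starts, which both genes have before their start, are shown because the chains differed in call (GRCh38.p14, chr13:110307158-110307283, plus strand, the direction of COL4A2). Capitals mark 1 CCAAT box and 1 GC box.

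COL4A1/COL4A2: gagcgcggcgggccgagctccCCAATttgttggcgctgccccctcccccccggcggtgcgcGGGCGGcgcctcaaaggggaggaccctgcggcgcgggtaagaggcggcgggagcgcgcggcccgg

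This stretch of 126 bases is 80.2% G and C, and it holds no TATA box or AP-1 letters. Over all RefSeq windows, 21.1% hold a CCAAT box and 34.6% a GC box in the last 126 bases before the start.

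COL4A4 (ENSG00000081052.12, chromosome 2, 227002711 to 227164453) lies head to head with COL4A3, its partner in the same network. It had 5, 1 and 0 counts in untreated WT and 0, 1 and 0 counts in treated WT libraries, against 5, 24 and 12 and 14, 78 and 68 counts in the NS1 groups. With 5-Ad-IAA it was at least 20.8-fold higher in NS1 than in WT cells, against a floor of 3 counts per WT library (adjusted p 0.00102), and this call held in all 9 fits that left out libraries. Without 5-Ad-IAA the log2 difference was 2.92 (SE 1.11, adjusted p 0.105), and without replicate 1 of all groups 4.83 (adjusted p 0.00134). With one block per replicate number it was 2.66 (adjusted p 0.0317). COL4A3 stayed at 0 to 3 counts in every library. The 250 bases before each RefSeq start (GRCh38.p14, chr2:227164374-227164623, plus strand, for COL4A3 and chr2:227164206-227164455, minus strand, for COL4A4) are shown because one neighbour was detected and the other was not.

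COL4A3: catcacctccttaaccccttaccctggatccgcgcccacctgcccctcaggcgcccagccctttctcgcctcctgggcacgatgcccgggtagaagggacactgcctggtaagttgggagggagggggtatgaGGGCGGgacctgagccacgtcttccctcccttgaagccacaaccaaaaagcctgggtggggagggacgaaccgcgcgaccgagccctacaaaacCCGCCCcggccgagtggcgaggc
COL4A4: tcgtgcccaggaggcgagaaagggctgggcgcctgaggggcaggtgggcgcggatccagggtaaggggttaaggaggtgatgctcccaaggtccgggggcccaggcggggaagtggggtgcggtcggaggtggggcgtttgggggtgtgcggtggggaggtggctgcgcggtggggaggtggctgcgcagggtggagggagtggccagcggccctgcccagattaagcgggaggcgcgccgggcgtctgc

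The capitals mark 2 GC boxes before COL4A3, 1 on each strand. Before COL4A4 none of the 4 motifs matched.

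COL4A5 and COL4A6, a further head-to-head pair on the X chromosome, were not called in any comparison without a block. COL4A5 ran from 23.3 to 55.3 CPM and COL4A6 from 12.7 to 36.2 CPM. Their ratio per kilobase was 1.34 ± 0.13 (SD, n = 3) in untreated WT, 1.25 ± 0.12 in treated WT, 1.74 ± 0.12 in untreated NS1 and 2.22 ± 0.13 in treated NS1 cells. The treated NS1 libraries (2.08 to 2.34) lay above the untreated ones (1.6 to 1.81), and both lay above all WT libraries (1.14 to 1.44). COL4A6 itself was lower in each treated NS1 library than in any untreated one, with a log2 fold change of -0.37 with the line block (adjusted p 0.0516).

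**Figure D3:**
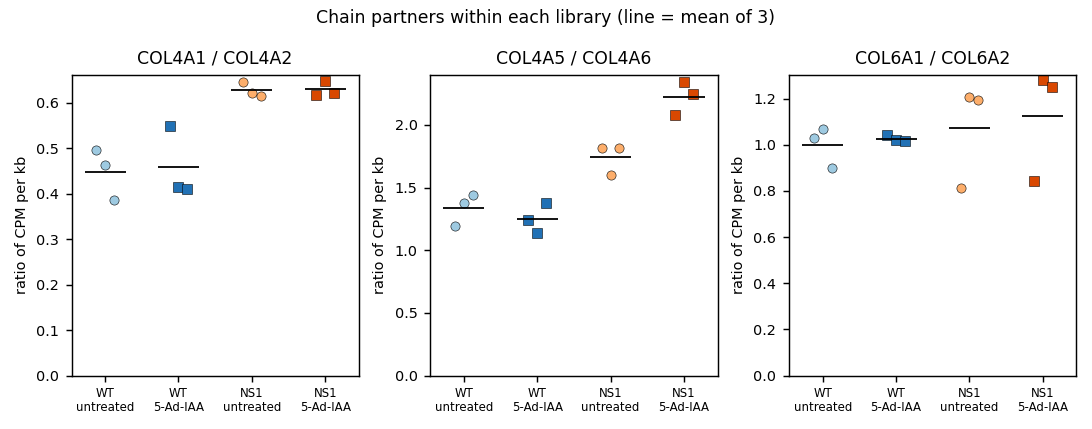
Ratio of CPM per kilobase of exon between chain partners in each library, with the group mean as a bar (linear axes from 0). COL4A1 to COL4A2 is 0.615 to 0.649 in NS1 and 0.386 to 0.549 in WT libraries, COL4A5 to COL4A6 is highest in treated NS1 libraries, and COL6A1 to COL6A2 is lowest in replicate 1 of both NS1 groups.

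The beaded-filament chains COL6A1 and COL6A2 were lower in NS1 cells with and without 5-Ad-IAA. COL6A1 (ENSG00000142156.14, chromosome 21, 45981737 to 46005050) had 381, 331 and 328 CPM in untreated WT, 335, 348 and 342 CPM in treated WT, 207, 242 and 253 CPM in untreated NS1 and 255, 265 and 260 CPM in treated NS1 libraries. Every NS1 library lay below every WT library. The log2 difference was -0.57 untreated (SE 0.10, adjusted p 0.00367) and -0.39 treated (SE 0.10, adjusted p 0.0113), and both calls held without any single library. COL6A2 (chromosome 21) had 373, 312 and 367 CPM in untreated WT, 325, 343 and 338 CPM in treated WT, 257, 201 and 213 CPM in untreated NS1 and 304, 209 and 210 CPM in treated NS1 libraries. NS1 replicate 1 stood closest to WT cells in both groups.

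For COL6A2 the log2 differences were -0.65 (SE 0.15, adjusted p 0.0143) and -0.48 (SE 0.15, adjusted p 0.0301). The untreated COL6A2 call was lost without NS1 replicate 2 (adjusted p 0.071) or 3 (0.059). The treated one was lost without replicate 2 of WT (0.0812) or NS1 (0.12) and replicate 3 of WT (0.074) or NS1 (0.126), and with only the 2 groups in the fit (0.0522). Without replicate 2 and without replicate 3 of all groups no COL6A1 or COL6A2 call remained. COL6A3, the large remaining chain of the type VI monomer, was 0.0502% to 0.191% of COL6A1 per kilobase, and its log2 differences between lines were 0.42 (adjusted p 0.593) and 0.20 (adjusted p 0.768).

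COL18A1 was higher in NS1 cells in both comparisons. It had 290, 255 and 191 CPM in untreated WT and 203, 231 and 207 CPM in treated WT libraries, below all NS1 libraries (308 to 675 CPM). The log2 difference was 0.73 untreated (SE 0.22, adjusted p 0.0473) and 1.42 treated (SE 0.23, adjusted p 0.000578). The treated call held in all 9 fits that left out libraries. The untreated call was lost without replicate 2 of WT (adjusted p 0.0901) or NS1 (0.157), replicate 3 of WT (0.159) or NS1 (0.129), and replicate 2 or 3 of all groups. It was also lost with library totals as the scaling (0.69, adjusted p 0.0526).

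The exons of COL18A1 share 1401 bases (16.4% of their length) with SLC19A1 on the opposite strand, and the use of strand in counting is not given in the sources used here. SLC19A1, the reduced folate carrier, had 84.8 ± 16.5 CPM (SD, n = 3) in untreated WT, 74.6 ± 7.16 in treated WT, 134 ± 21.3 in untreated NS1 and 165 ± 40.7 in treated NS1 cells. Its log2 differences between lines were 0.65 (adjusted p 0.0405) and 1.14 (adjusted p 0.000852). As the counting settings are not given, reads from the shared bases could have been counted for either gene or for neither. With the line block SLC19A1 rose with 5-Ad-IAA in NS1 cells (0.28 log2, adjusted p 0.0248), and its interaction was 0.46 (adjusted p 0.0217). All COL18A1 results above, the inducer and interaction values included, carry this limit. Other exonic overlaps of expressed collagens covered at most 1.26% of their length.

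COL7A1 had 79.2, 70.9 and 71.7 CPM in untreated WT and 72.6, 65.3 and 71.5 CPM in treated WT libraries. All treated NS1 libraries lay above them, while untreated NS1 replicate 1 lay within their range. The log2 difference was 0.80 treated (SE 0.12, adjusted p 0.000415), called in all 9 fits that left out libraries, and 0.33 untreated (SE 0.12, adjusted p 0.0925). COL13A1 was higher in untreated NS1 than in untreated WT cells (log2 difference 1.00, SE 0.26, adjusted p 0.025). With 5-Ad-IAA its NS1 libraries lay below the WT libraries, with a difference of -0.72 (SE 0.28, adjusted p 0.0676). That treated difference was called with one block per replicate number (-0.77, adjusted p 0.0293). That untreated call was kept without NS1 replicate 1 and without replicate 1 of all groups. It was lost without WT replicate 1 (adjusted p 0.0509), WT replicates 2 or 3 (0.0653 and 0.0765), NS1 replicates 2 or 3 (0.101 and 0.0836), and replicate 2 or 3 of all groups (0.266 and 0.277).

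COL14A1 and COL16A1, fibril-associated collagens with means under 1 CPM that passed the filter through NS1 libraries, were also higher in NS1 cells. COL14A1 had 0 to 0.142 CPM in WT libraries, all at or under 3 counts, and 0.509 to 1.20 CPM in NS1 libraries. It was at least 2.97-fold higher untreated (adjusted p 0.0099) and at least 4.83-fold higher treated (adjusted p 0.000744). The untreated COL14A1 call was lost without replicate 2 (adjusted p 0.113) or replicate 3 (0.129) of all groups. COL16A1 had 0.148 to 0.72 CPM in treated WT and 1.09 to 1.91 CPM in treated NS1 libraries, a log2 difference of 1.46 (SE 0.44, adjusted p 0.0246). That call was lost without WT replicate 2 (adjusted p 0.0802), NS1 replicates 2 or 3 (0.0649 and 0.0874), and replicate 2 or 3 of all groups (0.224 and 0.152).

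None of the 3 expressed fibrillar genes was called between the lines without a block. COL5A2, whose usual partner COL5A1 was 0% to 0.0525% of its level per kilobase, ran from 334 to 546 CPM, with log2 differences of -0.01 (adjusted p 0.97) and 0.13 (adjusted p 0.562). COL27A1 ran from 2.80 to 6.11 CPM. COL1A1 had 3.98, 1.58 and 2.13 CPM in untreated WT and 3.18, 1.34 and 1.08 CPM in treated WT libraries, where replicate 1 was the highest. Its log2 difference with 5-Ad-IAA was 0.96 (SE 0.38, adjusted p 0.076), and without treated WT replicate 1 it was 1.65 (adjusted p 0.00721). With one block per replicate number COL1A1 was called, at 1.01 (adjusted p 0.027).

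**Figure D4:**
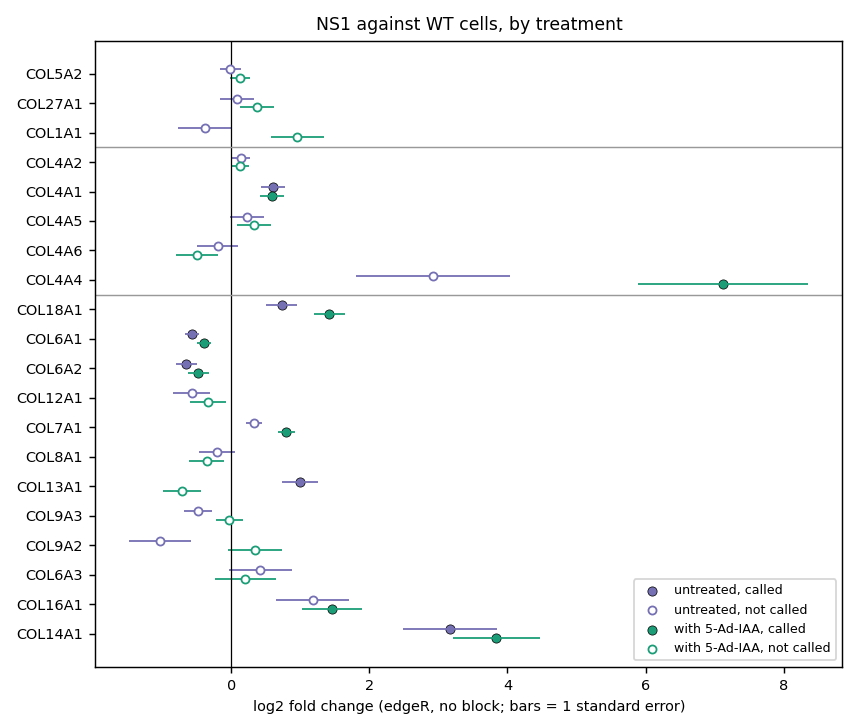
Log2 difference between NS1 and WT cells for the 20 expressed collagens without and with 5-Ad-IAA (edgeR without block), with bars of 1 standard error and filled points for called genes. COL4A1, COL18A1 and COL14A1 are filled and to the right in both comparisons, COL6A1 and COL6A2 are filled and to the left in both, and the fitted values of COL14A1 and COL4A4 rest on WT groups near 0 counts and are no measure of size.

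Leaving out replicate 1 of all groups raised the calls to 9 of 20 untreated and 11 of 20 treated, where 19.6% and 34% of all genes were called. Leaving out replicate 2 or replicate 3 lowered them to 0 and 0 untreated (1.13% and 1% of all genes) and to 4 and 4 treated (9.03% and 11.7% of all genes). In the untreated comparison 6 and 5 of 20 collagens had an unadjusted p under 0.05 in edgeR without replicate 2 and without replicate 3. The share of all genes under that cutoff was not taken for these fits. In the fit of all libraries 12 of 20 collagens and 4948 of 17775 genes were under it. Among fits that left out 1 library, the counts moved by over 1.5 times untreated without WT replicate 2 (3 calls), NS1 replicate 2 (2) or NS1 replicate 3 (2), and treated without WT replicate 2 (5) or NS1 replicate 2 (5). Of all genes, those fits called 9.81%, 6.63% and 6.96% untreated and 20.6% and 20.9% treated. Replicate 1 was the lowest library in all 4 groups for COL6A3 and the highest in all 4 for COL14A1.

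The genes that process collagen were read from a list of 34, of which 30 were expressed. With 5-Ad-IAA edgeR without a block and DESeq2 called none of the 30 in NS1 cells. Of all genes they called 6.15% and 8.46%, the latter of genes with an adjusted p. In edgeR 5 of the 30 had an unadjusted p under 0.05, as had 3689 of 17775 genes. In WT cells they called none either, against 0% of all genes, with 0 at an unadjusted p under 0.05. With the line block 9 were called in NS1 cells, 8 higher and 1 lower, against 25.9% of all genes (13% higher and 12.8% lower). Examples are LOXL2, a lysyl oxidase-like enzyme of cross-linking (0.57 log2, adjusted p 5.08e-05), and BMP1, the proteinase that trims C-propeptides (0.51, adjusted p 0.000555). The lower one was PLOD3, a lysyl hydroxylase and glycosyltransferase (-0.21, adjusted p 0.0386). In the interaction none was called by edgeR without a block (0.0225% of all genes) or by DESeq2 (2.76% of genes with an adjusted p). In edgeR 2 of the 30 had an unadjusted p under 0.05, as had 2196 of 17775 genes. With the line block 6 were higher, where 6.98% of all genes were higher and 14% were called.

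Between untreated lines 9 of the 30 were called, 5 higher and 4 lower in NS1, against 12.5% of all genes (5.45% higher and 7.05% lower). The higher ones were TLL1 and TLL2, proteinases of the BMP1 family, ADAMTS2 and ADAMTS3, which remove N-propeptides, and LOXL2. TLL1, TLL2, ADAMTS2 and ADAMTS3 passed the low-count filter only because of their NS1 libraries. The filter thus favoured higher values among the called genes, and the share of all genes is no fair measure for them. The log2 differences of ADAMTS3, TLL2 and LOXL2 were 3.36, 1.90 and 0.72. TLL1 had 0.653 ± 0.367 CPM (SD, n = 3) in WT and 14.9 ± 3.59 CPM in NS1 cells (log2 difference 4.57, adjusted p 1.72e-05). ADAMTS2 had 0 counts in all WT libraries and 0.871 ± 0.699 CPM in untreated NS1 cells, at least 3.98-fold higher (adjusted p 0.0275). The lower ones included P4HB, the beta subunit of prolyl 4-hydroxylase, at 1140 ± 57.2 CPM in WT and 789 ± 58.4 CPM in NS1 cells (-0.53, adjusted p 0.00732), and PLOD3 at 99.6 ± 4.57 and 69.0 ± 3.47 CPM (-0.53, adjusted p 0.00197). PCOLCE, an enhancer of C-propeptide removal, and FKBP14, a prolyl isomerase, were lower by -0.77 (adjusted p 0.0422) and -0.65 (adjusted p 0.0332).

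With 5-Ad-IAA 12 of the 30 were called between the lines, 8 higher and 4 lower, against 28.2% of all genes (13.6% higher and 14.5% lower). TLL1, TLL2, ADAMTS3 and ADAMTS2 again had the highest values, with the same limit from the filter. TLL2 had 0.559 ± 0.052 CPM in WT and 5.07 ± 0.43 CPM in NS1 cells (log2 difference 3.15, adjusted p 1.61e-05). LOXL2 stood at 420 ± 20.5 and 1054 ± 271 CPM (1.33, adjusted p 0.000477). PLOD3 was at 98.7 ± 1.77 and 59.4 ± 1.44 CPM (-0.73, adjusted p 7.29e-05), and FKBP14, P4HB and FKBP10 were the other lower ones.

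Of 9 collagen receptor genes, 5 were expressed (DDR1, ITGA1, ITGA2, ITGA11 and MRC2). In NS1 cells ITGA11, the integrin subunit that binds fibrillar collagen, rose from 14.8 ± 4.64 to 56.7 ± 18.9 CPM (SD, n = 3) with 5-Ad-IAA (1.94 log2, SE 0.30, adjusted p 0.0045). ITGA2, a collagen-binding integrin subunit of epithelia and platelets, fell from 209 ± 8.89 to 123 ± 21.7 CPM (-0.76, SE 0.20, adjusted p 0.0437). These were the 2 calls among the 5 without a block, where 6.15% of all genes were called (2.76% higher and 3.39% lower). With the line block all 5 were called, 4 higher and ITGA2 lower, against 25.9% of all genes. In WT cells edgeR and DESeq2 called none of the receptors, against 0% of all genes, with 0 at an unadjusted p under 0.05. Between untreated lines ITGA11 was the only receptor called (1.59, adjusted p 0.00833), where 12.5% of all genes were called (5.45% higher and 7.05% lower). Between treated lines ITGA11, ITGA1 and MRC2 were higher (3.56, 0.93 and 0.66) and ITGA2 lower (-0.71) in NS1 cells. Of all genes 28.2% were called there (13.6% higher and 14.5% lower).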

How the data were processed

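The deposited values are raw integer counts of reads per gene from 12 poly(A) RNA-seq libraries of T24 cells, in 1 table. STAR 2.7.3a, featureCounts 1.6.4 and the build hg38 are named per the submitters' processing notes, with no role or setting. Symbols were matched for 60261 identifiers. Positions came from GENCODE 29 (19 of 43 collagens have the same version, and start and end are given for these only). RefSeq promoter windows on GRCh38.p14 were matched by symbol for 31 of 43.

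The test used edgeR 4.0.16 (R 4.3.3): filterByExpr, TMM, a mean for each of 4 groups, glmQLFit and two-sided glmQLFTest. CPM uses TMM-scaled library totals. Alternatives were DESeq2 1.42.0 size factors and Wald test, library totals, other low-count filters (none, or at least 10 counts in every library), only the groups compared, blocks, and leaving out replicates. The fitting steps were tested on simulated data.

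Same-numbered libraries of a line had correlations of 0.713, 0.386 and 0.384 in NS1 and 0.752, 0.385 and 0.256 in WT. Replicates 2 and 3 also correlated across numbers (0.371 and 0.278 in NS1, 0.367 and 0.248 in WT). These values set replicate 1 apart and do not settle whether replicates 2 and 3 are paired by number. No 2 libraries looked like copies of one (lowest chi-square per degree of freedom 3.03). Bounds use 3 counts per library and cover counting error only.

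Collagens called in at least 1 of the 5 comparisons with a mean of at least 1 CPM are given by library, others by range. From the processing and receptor lists up to 4 called genes in each direction are named. Genes called only with a block were named after their values were seen. The members and lists were chosen with earlier results of these data known.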

Additional observations from a re-analysis of the deposited data

Results flagged for a closer look

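Of 20 collagens, 5 differed between the lines in their response to 5-Ad-IAA by a test of the interaction in a blocked edgeR fit. COL13A1 had an interaction of -1.71 log2 with one block per replicate number (adjusted p 0.0221, where 3.57% of all genes were called) and of -1.71 with a block per number within each line (adjusted p 1.61e-05, where 14% of all genes were called). With the latter block COL18A1 had 0.65 (adjusted p 0.0068), COL1A1 1.34 (adjusted p 0.00737), COL4A4 4.16 (adjusted p 0.0326) and COL7A1 0.48 (adjusted p 0.00589). Without a block the adjusted p-values of these genes ran from 0.0849 (COL13A1) to 0.503 (COL4A4).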

How the results depend on the processing

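No called collagen changed direction under the alternatives run. In WT cells the count of collagens called stayed at 0 throughout. With 5-Ad-IAA in NS1 cells the count of 1 became 5 with no low-count filter (5.28% of all genes called), 2 with DESeq2 (8.46% of genes with an adjusted p), 2 with only the groups compared (5.85%), 3 with the replicate block (13.6%), 7 with the replicate block within each line (25.9%), and 0 to 5 when replicates were left out (0% to 11.4%). For the interaction the count of 0 became 3 with no low-count filter (2%), 1 with DESeq2 (2.76%), 1 with the replicate block (3.57%), 5 with the replicate block within each line (14%), and 0 to 2 when replicates were left out (0% to 3.24%). Between untreated lines 6 calls became 8 with no low-count filter (8.74%) and 5 with at least 10 counts in every library (12.7%). They became 4 with library totals (12.3%), 4 with only the groups compared (9.3%), and 0 to 9 when replicates were left out (1% to 19.6%). Between treated lines 8 became 5 with at least 10 counts in every library, where 15 collagens were tested (29.3%), and 11 with no low-count filter (16.1%). They became 9 with library totals (28.4%), 9 with DESeq2 (28.2%) and 6 with only the groups compared (26.4%). The count was 4 to 11 when replicates were left out (9.03% to 34%). Between lines same-numbered libraries share only a number (correlations 0.136, 0.0719 and 0.19 untreated, 0.153, 0.12 and 0.00601 treated). The replicate block gave 7 and 10 calls there (22% and 37.5% of all genes), and the block within each line could not be fitted. With library totals in place of TMM all genes split into 370 higher and 759 lower in NS1 cells with 5-Ad-IAA and 1863 and 3182 between treated lines. Of single-gene values, 393 kept their side of the threshold, 43 gained and 52 lost a call. The low counts of COL4A4, COL14A1 and COL16A1 limit the size of their differences to bounds or wide errors.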
